A study of Mus musculus with 12 samples.

Results

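Osteopontin (Spp1), galectin-3 (Lgals3) and 7 further genes linked to repair macrophages (Gpnmb, Trem2, Itgax, Cd44, Cd300lf, Fabp7 and Apoe) were followed in adult mouse cardiomyocyte RNA, 9 of the 21493 genes counted. The genes were found by symbol in every library, and all 9 passed the filter on low counts. Cd300lf passed it through Des-/- libraries only, and Itgax through Des-/- libraries and Des+/+ swim replicate 1. The 12 libraries came from heart cells of 3-month-old mice, isolated by perfusion with trypsin and collagenase D and harvested at once. They formed 4 groups of 3: Des+/+ non-swim, Des+/+ swim, Des-/- non-swim and Des-/- swim, where Des+/+ mice carried the intact desmin gene, Des-/- mice lacked it, and swim mice had gone through swimming exercise. Each library pooled cardiomyocytes of several mice, the deletion was carried by the whole animal, and no sorting step was named for these cells, so transcripts of other heart cells could be present.

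These genes were chosen with the genotype difference without swimming already known, in which Spp1, Cd300lf, Itgax and Gpnmb were among the largest increases. Values from the non-swim libraries are therefore given as a description with no p-value, and so are differences with swimming, which share those libraries. Which values led to Lgals3, Trem2, Cd44, Fabp7 and Apoe is not known, and all members were treated as chosen on that contrast. The genotype difference after swimming, which has none of the non-swim libraries as a compared group, was tested on that assumption. In bulk RNA, a change in the number of cells of a type and a change in RNA per cell cannot be told apart.

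Macrophages that clear lipid and dead cells in injured tissue are known for a shared set of transcripts. Osteopontin is a secreted phosphoprotein that binds integrins and the hyaluronan receptor Cd44, and galectin-3 is a secreted lectin that binds galactose-containing sugars. Trem2 is a surface receptor that senses lipids and signals through the adaptor Tyrobp, Apoe is a lipid carrier and Trem2 ligand, and Gpnmb is a membrane glycoprotein of phagocytes that handle much lysosomal cargo.

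Reads assigned to genes ranged from 4320819 to 12072443 per library. Desmin itself was lower in Des-/- libraries, with a log2 difference of -5.31 (SE 0.37, adjusted p = 0.000157 in edgeR) without swimming and of -3.72 (SE 0.35, adjusted p = 0.00323) after it. Cardiomyocyte markers were abundant in every library, between 5581 and 87114 summed CPM (counts scaled to 1e+06 gene reads of a library) over 8 genes, and lowest in the Des-/- non-swim library numbered 3. That library and its counterpart in the Des-/- swim group, replicate 3, stood apart from the rest in the markers of several other cell types, so results are given with and without them.

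The promoter windows below are shown because most of these genes varied together across libraries. They are the 250 bases before the RefSeq gene start (GRCm38.p6), written 5′ to 3′ on the gene's strand, for the 5 members whose window held one of the motifs searched. Capitals mark GAGGAAG, the core bound by the macrophage factor PU.1, or TGANTCA, the site bound by AP-1, each on either strand, and no matches overlapped.
Spp1 (chr5:104434861-104435110, plus strand): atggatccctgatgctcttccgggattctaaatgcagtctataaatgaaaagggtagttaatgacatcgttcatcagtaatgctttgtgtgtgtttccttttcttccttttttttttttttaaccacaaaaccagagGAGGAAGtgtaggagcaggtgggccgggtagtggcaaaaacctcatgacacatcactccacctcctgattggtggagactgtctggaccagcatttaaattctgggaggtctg
Trem2 (chr17:48346151-48346400, plus strand): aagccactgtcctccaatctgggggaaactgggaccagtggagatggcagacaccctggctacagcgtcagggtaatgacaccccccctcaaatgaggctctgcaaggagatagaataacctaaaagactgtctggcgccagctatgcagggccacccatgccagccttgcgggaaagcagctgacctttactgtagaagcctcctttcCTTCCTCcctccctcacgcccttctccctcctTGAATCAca
Cd44 (chr2:102901666-102901915, minus strand): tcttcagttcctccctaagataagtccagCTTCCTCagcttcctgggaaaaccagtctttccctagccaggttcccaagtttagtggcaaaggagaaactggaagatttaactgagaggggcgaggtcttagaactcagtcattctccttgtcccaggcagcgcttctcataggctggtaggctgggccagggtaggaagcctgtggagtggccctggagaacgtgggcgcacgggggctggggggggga
Cd300lf (chr11:115133993-115134242, minus strand): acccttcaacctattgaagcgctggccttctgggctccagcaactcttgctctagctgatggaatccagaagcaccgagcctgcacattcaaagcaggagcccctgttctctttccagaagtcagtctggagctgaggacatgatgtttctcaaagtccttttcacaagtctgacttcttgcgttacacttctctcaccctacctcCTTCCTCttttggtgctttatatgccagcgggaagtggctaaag
Itgax (chr7:128129300-128129549, plus strand): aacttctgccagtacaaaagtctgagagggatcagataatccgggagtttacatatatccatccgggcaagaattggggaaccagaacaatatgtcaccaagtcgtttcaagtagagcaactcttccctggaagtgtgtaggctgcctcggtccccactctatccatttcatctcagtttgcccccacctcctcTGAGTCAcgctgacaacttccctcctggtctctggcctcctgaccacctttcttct
The 9 genes had 12 windows in all. The PU.1 core was found in 4 of the 12 (of Spp1, Trem2, Cd44 and Cd300lf) and in 10.6% of 32851 mouse windows of the same length. The AP-1 motif was found in 2 of the 12 (of Trem2 and Itgax) and in 6.75% of all windows, and the E-box CACGTG in 0 of 12 and in 6.02% of all windows. For Spp1 the first of its RefSeq windows is shown, and the other held none of these letters. Lgals3, Gpnmb, Fabp7 and all 3 windows of Apoe held none either. A match is a stretch of letters and not a measured binding site.

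Spp1, at chromosome 5, 104435118 to 104441050 (GRCm38, plus strand), was counted over exons that share 309 bases with Gm42793, a locus on the same strand that the annotation lists as still to be checked by experiment. In the Des+/+ non-swim group Spp1 was at 2.00, 1.87 and 1.80 CPM in replicates 1 to 3, and in the Des+/+ swim group at 14.4, 0.749 and 2.42 CPM. In the Des-/- non-swim group it was at 4.78, 6.11 and 748 CPM, and in the Des-/- swim group at 4.69, 8.75 and 35.1 CPM. The 3 Des+/+ non-swim libraries were nearly equal, whereas Des-/- non-swim replicate 3 held 8555 reads against 45 and 54 in replicates 1 and 2. That library made up 98.6% of its group's summed level and stood 137-fold above the mean of replicates 1 and 2. Among normal hearts, replicate 1 of the swim group was the single high library.

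Lgals3 (chromosome 14, 47367751 to 47386160, plus strand) was also highest in replicate 3 of both Des-/- groups, with a smaller span. It was at 6.48, 4.32 and 4.15 CPM in the Des+/+ non-swim group and at 9.33, 4.49 and 4.41 CPM in the Des+/+ swim group. Desmin-null libraries were at 12.97, 11.3 and 516 CPM without swimming and at 10.2, 9.84 and 34.5 CPM after it. Every Des-/- library was above every Des+/+ library of either condition, by a margin of 1.05 times at the closest after swimming.

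Gpnmb (chromosome 6, 49036546 to 49070929, plus strand) was again far higher in 1 library than in the others. Its levels were 3.77, 6.43 and 4.87 CPM in the Des+/+ non-swim group and 9.80, 4.49 and 5.83 CPM in the Des+/+ swim group. They were 10.1, 8.15 and 975 CPM in the Des-/- non-swim group and 6.83, 9.84 and 37.3 CPM in the Des-/- swim group. Outside replicate 3 of the Des-/- groups, no library passed 10.1 CPM, and the swim groups overlapped.

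The receptors came next. Trem2 (chromosome 17, 48346401 to 48354147, plus strand) was at 2.36, 2.22 and 1.80 CPM in the Des+/+ non-swim group and at 3.07, 1.71 and 2.28 CPM in the Des+/+ swim group. It was at 7.76, 5.44 and 103 CPM in the Des-/- non-swim group and at 6.40, 6.12 and 35.9 CPM in the Des-/- swim group. No Des-/- library overlapped any Des+/+ library, and after swimming the lowest of the former lay 1.99-fold above the highest of the latter.

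Itgax (chromosome 7, 128129547 to 128150657, plus strand) encodes CD11c, an integrin chain of dendritic cells and some macrophages. It was near the detection floor in normal hearts, with 2, 6 and 6 reads without swimming and 19, 4 and 4 after it. In desmin-null hearts it had 36, 23 and 1252 reads without swimming (3.83, 2.60 and 110 CPM) and 12, 2 and 94 after it (1.71, 0.437 and 14.5 CPM). The swim groups overlapped, since replicate 2 of the Des-/- swim group was as low as the normal libraries.

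Cd300lf (chromosome 11, 115116214 to 115133992, minus strand), a lipid-binding receptor of myeloid cells that dampens activation, was the member with the lowest level per kilobase of exon. Normal libraries held 0, 1 and 1 reads without swimming and 3, 5 and 1 after it, and desmin-null libraries 7, 6 and 272 and then 8, 2 and 46. From 2 and 285 summed reads, the ratio of shares without swimming was 161, and without replicate 3 of the Des-/- group, which held 272 of the 285, it was 12.3. After swimming the ratio was 9.43 (4.63 to 21.7), and 2.64 (0.963 to 7.34) without replicate 3.

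Cd44 (chromosome 2, 102811141 to 102901665, minus strand), which is carried by many cell types besides macrophages, varied less. It was at 21.9, 23.7 and 26.8 CPM in the Des+/+ non-swim group and at 22.6, 18.0 and 15.4 CPM in the Des+/+ swim group. Desmin-null libraries were at 43.8, 61.0 and 147 CPM without swimming and at 27.6, 23.8 and 42.6 CPM after it. The genotypes were separate in both conditions, after swimming by a margin of 1.06 times.

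Apoe (chromosome 7, 19696109 to 19699188, minus strand) was the most abundant member, per kilobase of exon too. It was at 523, 521 and 676 CPM in the Des+/+ non-swim group and at 677, 589 and 718 CPM in the Des+/+ swim group. It was at 1591, 981 and 2077 CPM in the Des-/- non-swim group and at 1450, 1078 and 2368 CPM in the Des-/- swim group. The genotypes were separate in both conditions, and no single library set the difference: replicate 3 held 44.7% of the Des-/- non-swim group's summed level and 48.4% of the Des-/- swim group's.

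Fabp7 (chromosome 10, 57784881 to 57788450, plus strand), a fatty acid-binding protein best known from glia, did not follow the others. It was at 2.59, 1.40 and 1.44 CPM and at 1.65, 0.963 and 1.71 CPM in the Des+/+ non-swim and swim groups. It was at 1.91, 1.25 and 3.76 CPM and at 0.569, 0 and 3.69 CPM in the Des-/- non-swim and swim groups. All 4 groups overlapped, and the 0 in replicate 2 of the Des-/- swim group, the shallowest library, allows up to 0.694 reads in 1e+06.

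**Figure D1:**
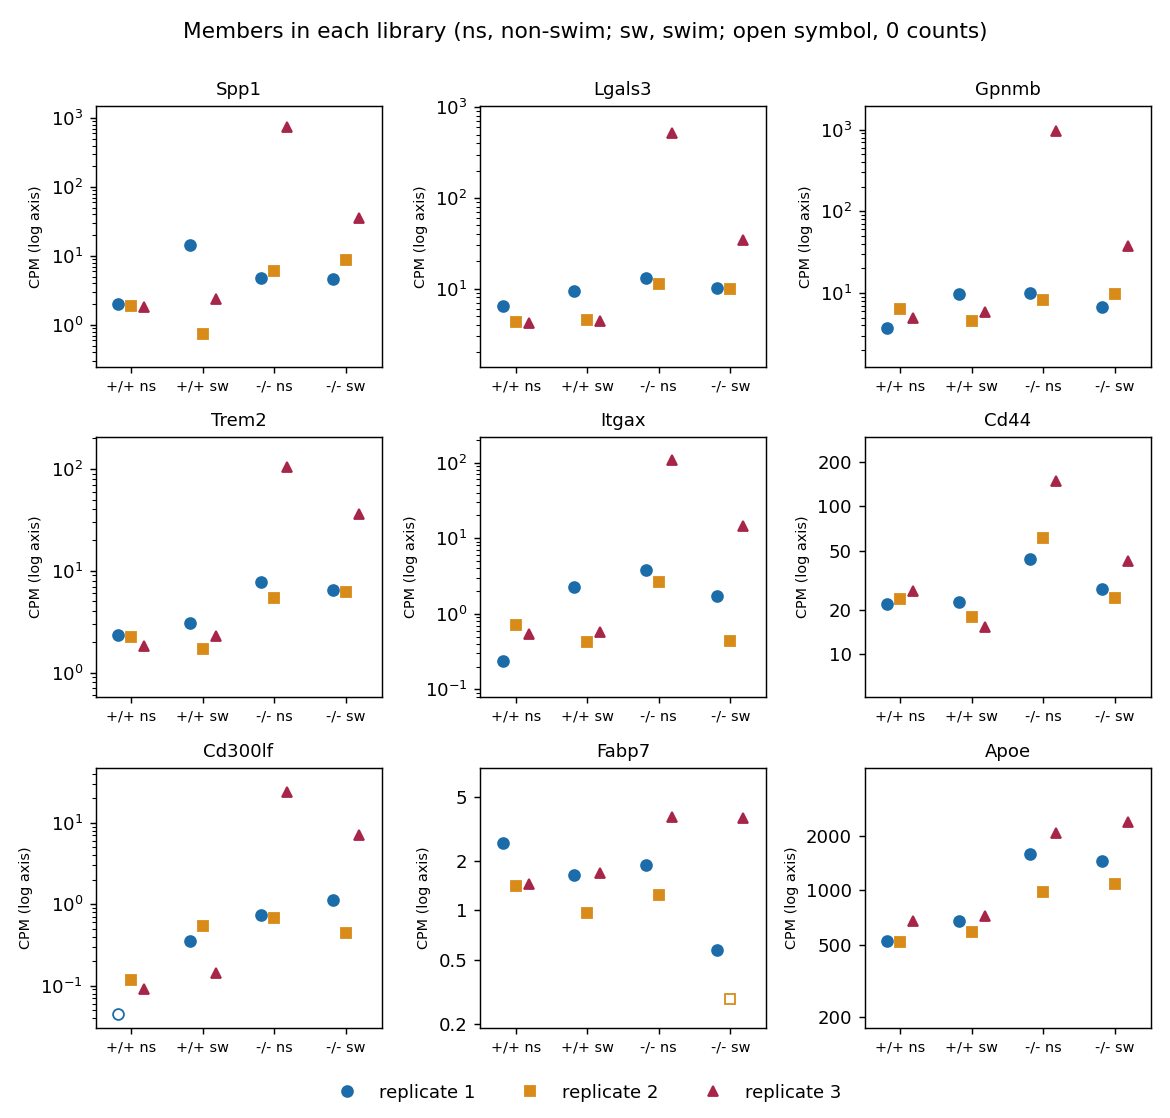
CPM of each of the 9 genes (vertical log axes, which differ between panels) in the 3 libraries of each group, with 1 symbol per replicate number and open symbols for 0 reads, drawn at an arbitrary low position. Replicate 3 is the highest library of both Des-/- groups in all 9 panels, from 2077 CPM for Apoe to 3.76 CPM for Fabp7 without swimming, and for Apoe replicates 1 and 2 also lie above every Des+/+ library.

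Without swimming, the 8 members other than Fabp7 had all 3 Des-/- libraries above all 3 Des+/+ libraries, as 23.0% of the 13158 genes tested did, and all 8 were called higher at an adjusted p under 0.05. Of all genes tested, 32.0% were called in either direction and 14.0% were called higher. Since the genes were chosen on this contrast, nothing is read from that count. The log2 differences were 7.06 (SE 1.98) for Spp1, 6.63 (SE 1.78) for Cd300lf, 6.25 (SE 1.68) for Itgax, 6.04 (SE 1.65) for Gpnmb, 5.18 (SE 1.35) for Lgals3 and 4.20 (SE 1.13) for Trem2. They were 1.80 (SE 0.39) for Cd44, 1.43 (SE 0.32) for Apoe and 0.36 (SE 0.81) for Fabp7.

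The Des-/- non-swim replicate 3 set the size of most of these differences. Without it the log2 difference was 1.52 for Spp1, 3.08 for Cd300lf, 2.67 for Itgax, 0.87 for Gpnmb, 1.29 for Lgals3 and 1.64 for Trem2. For Cd44 it was 1.12, for Apoe 1.17 and for Fabp7 -0.18. The median over the 9 genes went from 5.18 to 1.29. The number of members called went from 8 to 2 (Cd44 and Apoe), and that of all genes from 4210 of 13158 to 2805 of 13296. Nothing is read from these calls either, since the genes were chosen on this contrast. The remaining libraries, replicates 1 and 2, were still above every Des+/+ non-swim library for the same 8 genes, with means between 1.82 times (Gpnmb) and 10.3 times (Cd300lf) the normal mean.

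After swimming, Apoe was higher in Des-/- than in Des+/+ libraries, at 1632 ± 664 against 661 ± 66.3 CPM (SD, n = 3). Its log2 difference was 1.30 with an SE of 0.32, at an adjusted p of 0.0287 (edgeR quasi-likelihood test, Benjamini-Hochberg adjustment over all genes). It was higher in 3 of 3 libraries. It was the only member called of 9, where 10.6% of all genes tested were called and 5.01% were called higher. DESeq2 called the same gene alone and gave no p-value for 5 members (Spp1, Lgals3, Gpnmb, Trem2 and Itgax). The call was lost, with adjusted p up to 0.0896, when any of the 3 Des+/+ swim libraries or replicate 1 or 3 of the Des-/- swim group was left out. Without replicate 3 of the Des-/- swim group the log2 difference of Apoe was 0.93 (SE 0.29, adjusted p = 0.0818).

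The other members were above 0 in this comparison but did not pass. Trem2 was at a log2 of 2.78 (SE 1.10, adjusted p = 0.116 in edgeR), Cd300lf at 3.00 (SE 1.50, adjusted p = 0.196), Itgax at 2.37 (SE 1.53, adjusted p = 0.317) and Cd44 at 0.75 (SE 0.39, adjusted p = 0.214). Lgals3 was at 1.59 (SE 1.25, adjusted p = 0.416), Spp1 at 1.47 (SE 1.65, adjusted p = 0.574), Gpnmb at 1.43 (SE 1.46, adjusted p = 0.534) and Fabp7 at 0.04 (SE 0.87, adjusted p = 0.978). The median of the 9 was 1.47, against 0.02 over all genes tested. In 4 genes, Lgals3, Trem2, Cd44 and Apoe, all 3 Des-/- swim libraries lay above all 3 Des+/+ swim libraries, which 17.3% of all genes did.

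The members differed in how far replicate 3 of the Des-/- swim group carried these values. Without it, Spp1 went from 1.47 to 0.15, Itgax from 2.37 to 0.09 and Gpnmb from 1.43 to 0.29. Trem2 went from 2.78 to 1.41 (SE 1.09, adjusted p = 0.439 in edgeR) and Cd300lf from 3.00 to 1.18. Fabp7 was then at -2.08 (SE 0.88, adjusted p = 0.170), on 4 reads summed over both remaining Des-/- libraries against 35 in the 3 normal ones. The median went from 1.47 to 0.46.

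The spread behind these tests was estimated over all 12 libraries, so the unequal Des-/- non-swim replicates entered it. When replicate 3 of that group, which belongs to neither side of the swim comparison, was left out, Lgals3, Trem2, Cd44 and Apoe were called higher. So was Cd300lf, which had passed the filter through Des-/- libraries only and is not counted as support. The number of all genes called went from 1392 of 13158 to 2142 of 13296, of which 1000 were higher. The adjusted p of Trem2 was then 0.018 and that of Cd44 0.0479. Without replicate 3 of both Des-/- groups together, Trem2 (log2 1.42, adjusted p = 0.0278) and Apoe were called, where 1579 of all 13216 genes were called and 755 of these were higher. With only the 6 swim libraries in the edgeR fit, Apoe was the single member called and Trem2 was at an adjusted p of 0.0545. In that fit 1080 of all 12475 genes were called, 475 of them higher.

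**Figure D2:**
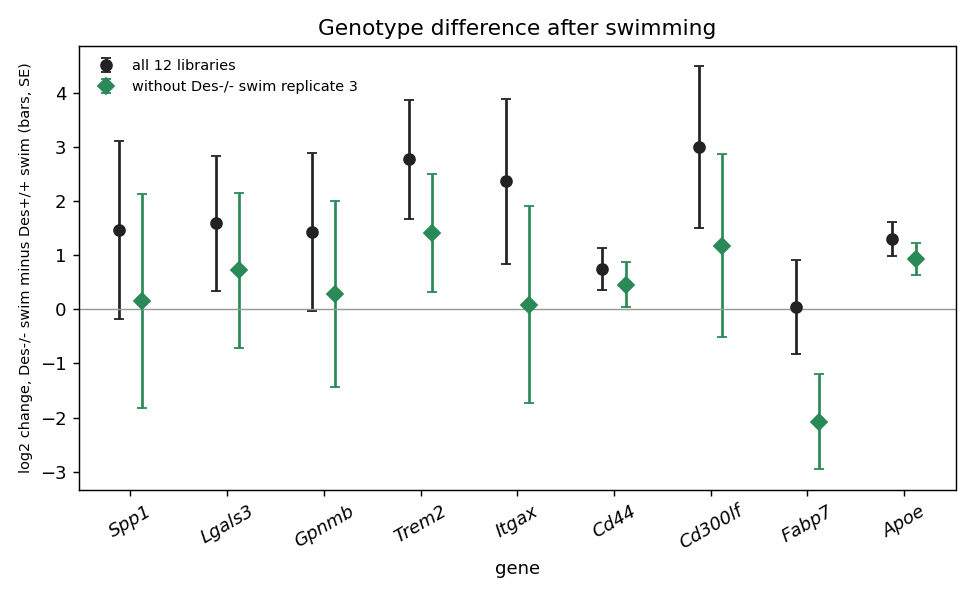
Log2 difference of each gene between Des-/- swim and Des+/+ swim libraries from the edgeR fit, with bars of 1 SE, over all 12 libraries (circles) and without replicate 3 of the Des-/- swim group (diamonds). Apoe has the shortest bars, 1.30 with an SE of 0.32 and 0.93 with an SE of 0.29, while Spp1 goes from 1.47 to 0.15 and Fabp7 from 0.04 to -2.08.

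Swimming itself was followed within each genotype, as a description. In Des-/- hearts 8 of the 9 genes had log2 changes below 0 with swimming, from -4.19 (SE 1.49) for Gpnmb and -3.96 (SE 1.64) for Spp1 to -0.65 (SE 0.84) for Fabp7, and Apoe was at 0.07 (SE 0.31). For 6 of them the sign changed when 1 library was left out. Without Des-/- non-swim replicate 3 the change was 1.57 for Spp1, 0.59 for Lgals3, 0.98 for Gpnmb, 1.29 for Trem2, 0.80 for Itgax and 2.02 for Cd300lf. When replicate 3 of the swim group, the high library that shares its number, was left out too, Spp1 was at 0.29, Lgals3 at -0.26, Gpnmb at -0.13, Trem2 at -0.06 and Itgax at -1.46. With the replicate number as a block, which these 2 groups share, 8 of the 9 changes were below 0, from -2.99 for Gpnmb to -0.86 for Trem2. The swim library was the lower one in all 3 same-numbered pairs for Lgals3, Itgax, Cd44 and Fabp7. Cd44 kept its sign at -0.73 without the non-swim library, and it was the single member whose 3 swim libraries (23.8 to 42.6 CPM) all lay below the 3 non-swim ones (43.8 to 147 CPM).

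In Des+/+ hearts the changes with swimming were smaller, between -0.37 (SE 0.39) for Cd44 and 2.11 (SE 2.20) for Cd300lf, with 7 of 9 above 0. Replicate 1 of the Des+/+ swim group was the highest of its group for 6 genes (Spp1, Lgals3, Gpnmb, Trem2, Itgax and Cd44), and without it 3 of the 9 were above 0. The change of Spp1 went from 1.63 (SE 1.90) to -0.32 and that of Itgax from 1.11 (SE 1.87) to -0.01. The swimming change in Des-/- minus that in Des+/+ was below 0 for all 9 genes, from -5.59 (SE 2.47) for Spp1 to -0.13 (SE 0.45) for Apoe, and it holds the same Des-/- non-swim library.

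Levels can be set against each other per kilobase of exon. Apoe led in every group, at 268 ± 41.6 CPM per kb in Des+/+ non-swim, 309 ± 31.0 in Des+/+ swim, 725 ± 257 in Des-/- non-swim and 763 ± 311 in Des-/- swim libraries (SD, n = 3), and no library of another member reached it. In the Des+/+ non-swim group Cd44 (3.56 ± 0.364 CPM per kb) and Lgals3 (2.68 ± 0.699) overlapped, then Fabp7 (1.45 ± 0.541) overlapped with Spp1 (1.15 ± 0.0616), and Gpnmb, Trem2, Itgax and Cd300lf followed, each below all libraries of the one before. In both Des-/- groups Spp1 and Lgals3 came after Apoe by their means, but neighbours below Apoe overlapped throughout. Apoe supplied between 91.0% and 96.1% of the reads of the 9 genes in 11 libraries and 44.2% in Des-/- non-swim replicate 3, where the other 8 genes together reached 2680 reads in 1e+06 gene reads against 31.0 to 223 elsewhere.

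Markers of other cells moved with these genes, and their part in the results was not tested. The 10 pan-macrophage genes (such as Csf1r, Adgre1 and C1qa) summed to 151 to 230 CPM in the 6 Des+/+ libraries. Sums in desmin-null libraries were 465, 272 and 2346 CPM without swimming and 235, 186 and 967 CPM after it, so both replicates 3 were again highest. All 10 were above 0 on the log2 scale in both comparisons, 8 called without swimming and 1 after it. Fibroblast markers (8 genes, such as Col1a1 and Dcn) were at 2204 to 3659 CPM in Des+/+ libraries. Des-/- libraries were all above these, at 8799, 7815 and 35811 CPM without swimming and 4378, 3771 and 11683 CPM after it. Cardiomyocyte markers were at 28895 to 87114 CPM in Des+/+ libraries. Des-/- libraries were all below these, at 13181, 24406 and 5581 CPM without swimming and 24545, 25028 and 14791 CPM after it. Without replicate 3 of both Des-/- groups, 8 of 8 fibroblast genes were called higher and 8 of 8 cardiomyocyte genes lower without swimming.

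Within each Des-/- group, the sums of further lists were highest in replicate 3. Transcripts that respond to tissue dissociation (8 genes, such as Fos and Atf3) summed to 1012 to 1655 CPM in Des+/+ libraries and to 2763 to 7044 CPM in Des-/- libraries. After swimming 6 of the 8 were above 0 on the log2 scale and 5 were called higher. Atf3, at 0.91, was not called, and the heat-shock genes Hspa1a and Hspa1b were below 0, at -1.62 and -1.94. In replicate 3 of the Des-/- non-swim and swim groups, the 6 monocyte markers summed to 2930 and 759 CPM (Des+/+ 232 to 374), mostly Fn1 (31646 and 4795 reads). Plac8 and Ly6c2 had 5 and 4 reads in Des-/- swim replicate 3, against 10 each in replicate 1. The 7 resident macrophage markers summed to 502 and 286 CPM in the same libraries (Des+/+ 100 to 150). Of the 502 CPM most was Mrc1 and F13a1 (2492 and 1900 reads). In that library Lyve1 held 154 reads against 352 and 301 in replicates 1 and 2. Timd4 held 18 against 27 and 13, and Cd163 159 against 149 and 112. The 6 proliferation markers summed to 412 and 113 CPM in replicate 3 (Des+/+ 8.41 to 80.3) and to 225 CPM in Des-/- non-swim replicate 2. The 6 osteoclast markers, a cell type that shares Spp1 and Gpnmb, summed to 133 and 47.0 CPM in replicate 3 of the Des-/- non-swim and swim groups (Des+/+ 10.6 to 23.4). These sums were mostly Ctsk and Acp5, while Calcr, Ocstamp and Dcstamp held at most 10 reads in any library.

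Blood cell markers differed between genotypes without swimming. The 5 erythrocyte markers, mainly globins, summed to 1470, 2435 and 4579 CPM in desmin-null and 247, 179 and 546 CPM in normal non-swim libraries, with 5 of 5 called higher (median log2 3.07), and 5 of 5 also without replicate 3 of both Des-/- groups (2.45). After swimming they overlapped, at 491 to 2919 against 1390 to 2175 CPM. Lymphocyte markers summed to 6.56 to 9.67 against 2.44 to 2.92 CPM without swimming and to 2.16 to 7.68 against 1.99 to 2.60 CPM after it. Neutrophil markers summed to 48.2 CPM in Des-/- non-swim replicate 3 and to at most 11.7 CPM elsewhere, and Ly6g was at 0 in every library. Markers of Schwann cells, the glia of nerves (35.4 to 84.4 CPM over the 12 libraries), endothelial cells (3284 to 6372 CPM) and mural cells (2158 to 4837 CPM) were highest in replicate 3 of neither Des-/- group. The same held for the dendritic cell sum (61.7 to 135 CPM), which was mostly Zbtb46. The dendritic genes Flt3, Clec9a, Cd209a and Batf3 were instead highest in Des-/- non-swim replicate 3, with 46, 12, 83 and 24 reads.

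**Figure D3:**
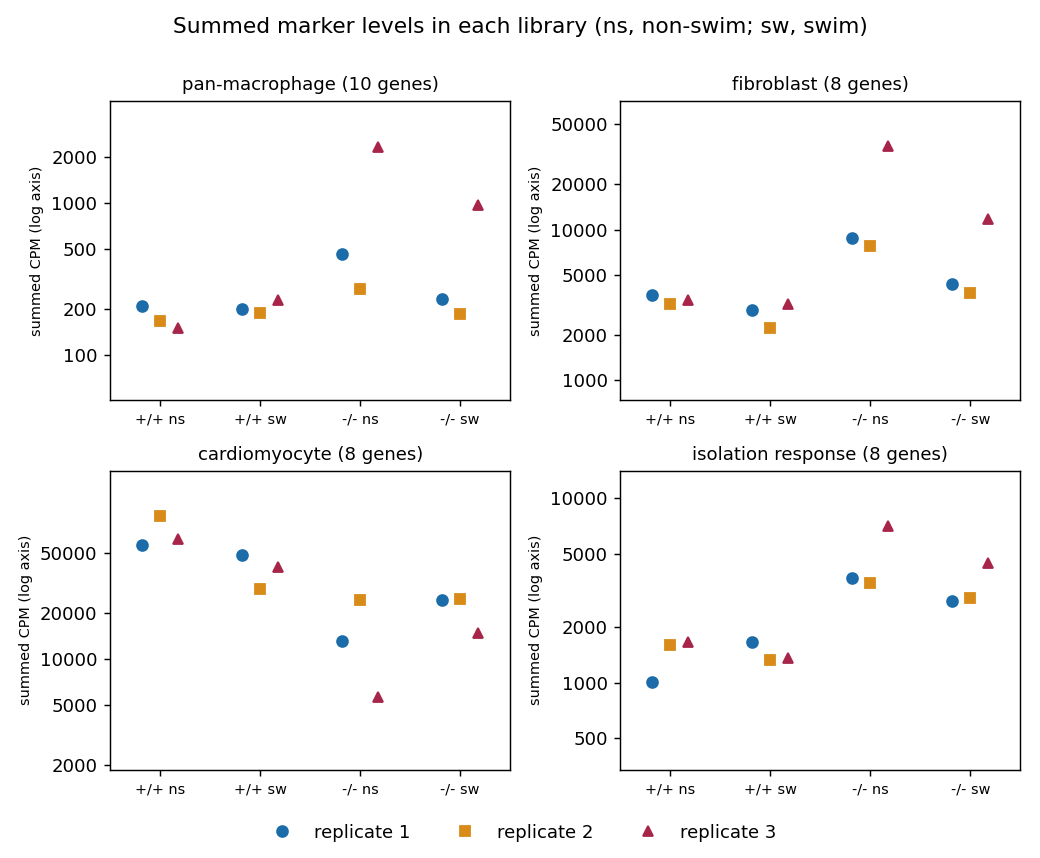
Summed CPM of pan-macrophage, fibroblast, cardiomyocyte and isolation-response markers (vertical log axes) in the 3 libraries of each group, with 1 symbol per replicate number. Replicate 3 of the Des-/- groups is highest for pan-macrophage markers (2346 and 967 CPM) and lowest within its group for cardiomyocyte markers (5581 and 14791 CPM).

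Set against the summed pan-macrophage markers, the members fell into different patterns, given here as ratios of CPM with no test. Trem2 kept a higher ratio in desmin-null libraries in both conditions, 0.0167 to 0.0441 against 0.0113 to 0.0133 without swimming and 0.0273 to 0.0371 against 0.00911 to 0.0152 after it, mean ratios 2.21 and 2.84 times the normal ones. Without Des-/- non-swim replicate 3, the mean ratio of Trem2 without swimming was 1.51 times the normal one. Spp1, Gpnmb and Lgals3 overlapped between genotypes in both conditions. For these 3 genes Des-/- non-swim replicate 3 alone stood out, with ratios of 0.319, 0.416 and 0.220 against at most 0.0713, 0.0529 and 0.0529 in any other library.

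Apoe and Cd44 overlapped between genotypes in both conditions. The ratio of Apoe was lowest of all in Des-/- non-swim replicate 3, 0.886 against 2.45 to 6.18 in the other libraries. Itgax and Cd300lf were separate without swimming and overlapped after it. The mean ratio of Itgax was 7.24 times the normal one with all libraries and 3.00 times without Des-/- non-swim replicate 3. The ratio of Fabp7 was lower without overlap in desmin-null libraries in both conditions, 0.339 and 0.301 times the normal mean.

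**Figure D4:**
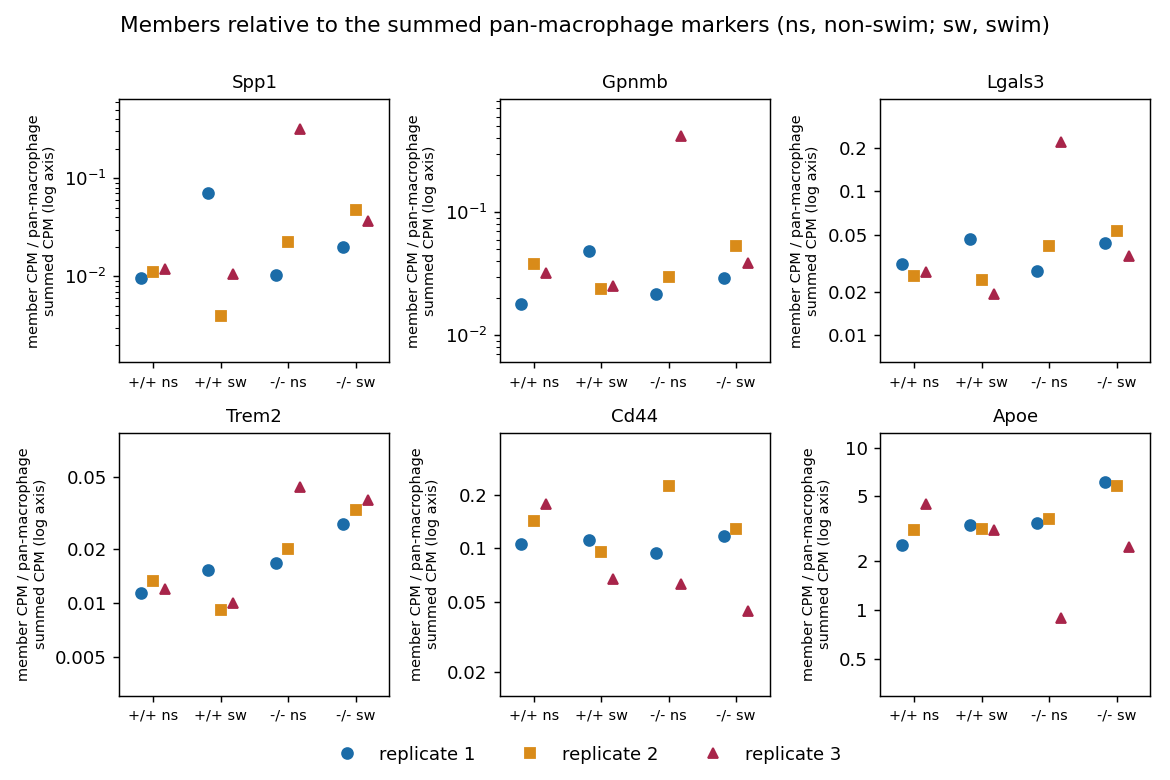
CPM of 6 genes divided by the summed CPM of the 10 pan-macrophage markers (vertical log axes) in the 3 libraries of each group. Trem2 is higher in all Des-/- than in all Des+/+ libraries of the same condition, Spp1, Gpnmb and Lgals3 stand out in 1 library (0.319, 0.416 and 0.220), and Apoe is lowest there (0.886).

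Across the 12 libraries the members varied together, except for Fabp7. Pearson correlations of log2 CPM between the 36 pairs ran from 0.18 (Fabp7 with Apoe) to 0.98 (Lgals3 with Gpnmb), with a median of 0.875, and from 0.01 to 0.97, with a median of 0.80, when Des-/- non-swim replicate 3 was left out. These are descriptions, since the libraries share groups, depth and the high libraries. Over the 11 libraries Spp1 followed Gpnmb (0.90) and Lgals3 (0.88) more closely than Cd44 (0.51), and Trem2 followed Lgals3 (0.97) and Apoe (0.94).

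Among all other genes tested, those most like Spp1 over 12 libraries were Cstb (r = 0.948), Cd68 (0.947) and Lmna (0.947). Those most like Lgals3 were Cd68 (0.978), Myo1f (0.975) and Myo5a (0.972), and those most like Gpnmb were Grn (0.974), Cd68 (0.972) and Man2b1 (0.971). Cstb, Grn and Man2b1 encode a cathepsin inhibitor, progranulin and a lysosomal mannosidase, and Cd68 is a lysosomal protein of phagocytes. The order depended on the highest library: without it Grn came 231st for Gpnmb (0.817) and Man2b1 264th (0.810).

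Trem2 had the cytokine receptor chain Csf2rb (0.984), the lysosomal sterol carrier Npc2 (0.982) and the matrix protein Thbs4 (0.981) as nearest genes, at 0.966, 0.962 and 0.957 without that library. The nearest of Apoe were Scarf2 (0.979), Vkorc1 (0.973) and Mmgt2 (0.971), and all 3 stayed within the first 8 without it.

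Partners of the members were followed through 11 lists holding 90 further genes tested, of which 2 were called higher (Mmp3 and Igf1) and 1 lower (Vldlr) after swimming, where 10.6% of all genes were called. Their median log2 difference was 0.25, with 56 of 90 above 0. Among 9 integrin chains that bind osteopontin, 0 were called after swimming, and without swimming 2 were called higher and 1 lower. The nearest to the threshold after swimming was Itgb1, the shared beta 1 chain, at -0.64 (SE 0.19, edgeR adjusted p = 0.0504).

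Of 6 tested enzymes that cut, phosphorylate or cross-link osteopontin, 1 was called after swimming. Mmp3, a matrix metalloproteinase, was at 1.75 ± 1.72 CPM in Des+/+ and 23.0 ± 14.1 CPM in Des-/- swim libraries (SD, n = 3). Its log2 difference was 3.71 with an SE of 0.81 (adjusted p = 0.0202 in edgeR). Without swimming 3 of the 6 were called higher, among them the macrophage elastase Mmp12 (log2 5.75, SE 1.56). Mmp12 was at 0.888 ± 0.0637 CPM in Des+/+ non-swim, 48.4 ± 80.2 CPM in Des-/- non-swim and 2.12 ± 1.71 CPM in Des-/- swim libraries.

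Of 6 tested genes of the galectin list, 2 were called higher and 1 lower without swimming and 0 after it. Lgals1, which encodes galectin-1, was at a log2 of 1.53 (SE 0.44) without swimming and 1.34 (SE 0.44, edgeR adjusted p = 0.0698) after it. Lgals4, which may share reads with its near-identical copy Lgals6, went the other way without swimming, at -1.52 (SE 0.31), and was at 0.39 (SE 0.31) after it.

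The Trem2 signalling list had all 10 tested genes above 0 without swimming, 4 of them called higher, and 8 of 10 above 0 after it with 0 called. Tyrobp, the adaptor through which Trem2 signals, was at 3.95 (SE 0.98) and then 1.89 (SE 0.94, edgeR adjusted p = 0.193), and Ms4a7, a membrane protein of macrophages, at 4.76 (SE 1.52) and then 3.84 (SE 1.57, adjusted p = 0.127). Of 21 tested genes of the lipid-associated macrophage state, 7 were called higher and 2 lower without swimming and 0 after it. Among the lower ones was the lipase Lpl, at -1.73 (SE 0.30), which stood at 7269 ± 704 CPM in Des+/+ non-swim hearts.

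Receptors and enzymes that work with Apoe were divided. Vldlr, the very-low-density lipoprotein receptor, was at 173 ± 37.6 CPM in Des+/+ and 61.2 ± 7.53 CPM in Des-/- swim libraries. Its log2 difference was -1.50 (SE 0.43, edgeR adjusted p = 0.0461). Lrp1, the large endocytic Apoe receptor, was at 1.76 (SE 0.32) without swimming and 0.60 (SE 0.32, adjusted p = 0.218) after it. Of the 6 tested, 1 was called higher and 1 lower without swimming.

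Among relatives of the receptors, all 3 tested chains of the CD11 and beta 2 integrin list were called higher without swimming and 0 after it, and Itgb2, the partner chain of Itgax, was at 3.06 (SE 0.84) and then 0.72 (SE 0.83). Of 5 tested Cd300 genes 3 were called higher and then 0, with Cd300c2 at 4.07 (SE 1.17) and then 2.72 (SE 1.19, edgeR adjusted p = 0.147). Of 10 ligands and partners of Cd44, 4 were called higher and then 0. Has1, a hyaluronan synthase, was at 6.78 (SE 1.54) and then 1.86 (SE 1.38), and Vcan, the hyaluronan-binding proteoglycan versican, at 2.37 (SE 0.45) and then 1.19 (SE 0.44, adjusted p = 0.0942).

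Of 3 tested fatty acid-binding proteins besides Fabp7, 1 was called higher (Fabp5) and 1 lower (Fabp3, the heart-type protein) without swimming and 0 after it. Fabp3 was at 1630 ± 517 CPM in Des+/+ and 273 ± 143 CPM in Des-/- libraries without swimming. After swimming it was at 780 ± 181 and 406 ± 91.2 CPM. Of 14 tested factors and receptors of repair macrophages, 6 were called higher and 1 lower without swimming, and 1 was called higher after it. That gene was Igf1, insulin-like growth factor 1, at 20.3 ± 7.73 CPM in Des+/+ and 72.8 ± 55.8 CPM in Des-/- swim libraries (SD, n = 3). Its log2 difference was 1.85 with an SE of 0.50 (adjusted p = 0.0378 in edgeR).

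The counts of these lists leaned on the high libraries in part. Without replicate 3 of both Des-/- groups, 13.6% of all genes were called higher without swimming. The numbers called higher were then 2 of 10 for Trem2 signalling, 4 of 21 for the lipid-associated state, 1 of 5 for the Cd300 genes, 2 of 3 for the CD11 and beta 2 chains, 4 of 10 for the partners of Cd44 and 6 of 12 for the repair factors and receptors. They were 2 of 9 for the osteopontin receptors, 1 of 6 for its enzymes, 2 of 5 for the galectin list, 1 of 6 for the partners of Apoe and 0 of 4 for the fatty acid-binding proteins. The pan-macrophage list then had 7 of 10 called higher without swimming, with a median log2 of 1.29 in place of 2.79, and after swimming 1 of 10, with a median of 0.03 in place of 1.21.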

How the data were processed

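Poly-A RNA of 12 heart cell libraries (4 groups of 3) was sequenced as 100 bp single-end reads. Per the paper's methods and the submitters' processing notes, the authors aligned reads to GRCm38 (mm10) with HISAT2 2.2.1, sorted them with SAMtools 1.13 and counted reads per gene with HTSeq (reverse strand), and the deposited values are those raw counts. The labels and the methods name different library kits. HTSeq's 5 summary lines were left out; they held 52.37% to 78.76% of all reads.

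Groups came from the sample titles. The test was edgeR's (version 4.0.16, R 4.3.3), with TMM scaling, filterByExpr (13158 genes kept), a quasi-likelihood fit of 4 group means over 12 libraries (8 residual df), and a call at a Benjamini-Hochberg adjusted p under 0.05. CPM are counts scaled to 1e+06 TMM-scaled gene reads. This departs from the study's DESeq2, which was run here (1.42.0) as an alternative, as were other scalings, other filters, the study's own filter, each library left out in turn and a replicate block. The model was tested on simulated data. Libraries differed by more than counting noise. No source states which mice gave which pool, so p-values measure the spread between these pools. A floor of 3 counts, or 0.248 to 0.694 in 1e+06 gene reads, was taken, and intervals cover counting error only.

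The members, the 11 partner lists and the 15 marker lists were chosen with earlier results of these data known. Named genes were the 9 members, Des, up to 4 genes per partner list with the largest log2 difference after swimming (mean count of at least 20), and the 3 genes most correlated with Spp1, Gpnmb, Trem2, Lgals3 and Apoe (log2 CPM, prior count 2); others named as examples of a list were chosen after their values were seen. The replicate numbers of the Des-/- groups deviated together (r of 0.365, 0.316 and 0.602), those of the swim groups did not all do so (0.019, 0.125 and 0.116), so the swim comparison was not paired. Promoter windows came from RefSeq, in which all 9 members were found.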

Additional observations from a re-analysis of the deposited data

Results flagged for a closer look

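Of reads aligned to a single place, the median share that fell in no gene was 47.27% in Des+/+ swim libraries and 58.31% in Des-/- swim libraries, above every Des+/+ non-swim library (33.97% to 39.34%). In the Des-/- non-swim group it was 52.32%, 49.0% and 34.16%. These reads enter no comparison above, and 34.16% is the value of replicate 3, the library with the highest levels of 8 members. Whether it bears on the members was not tested. The check for a single outlying library covers groups of 4 or more and was not applied to these groups of 3.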

How the results depend on the processing

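Without swimming 1840 of 4210 called genes were higher (43.7%) and after it 659 of 1392 (47.3%); with upper-quartile scaling these shares were 55.1% and 67.5%, and with library totals 69.9% and 77.1%. All genes called after swimming numbered 2332 by DESeq2, 2313 by the study's filter and 74 (without Des+/+ swim replicate 3) to 2142 when 1 library was left out, and without swimming 2612 to 4590 when 1 library was left out. Members called after swimming numbered 0 to 5 when 1 library was left out and 2 by the study's filter (Trem2 and Apoe), where 1 was called with all libraries. Without replicate 3 of both Des-/- groups 2 members were called, and 1579 of all 13216 genes. Members called without swimming, 8 in the edgeR fit, numbered 3 by DESeq2, 4 with only the 6 libraries compared and 6 with the replicate block. They numbered 2 to 8 when 1 library was left out (2 without Des+/+ non-swim replicate 2 or 3 or Des-/- non-swim replicate 3). The members were chosen on this contrast, so nothing is read from these counts. Fabp7 after swimming, at 0.04, went to -0.33 with the replicate block, -0.19 without Des+/+ swim replicate 2, 0.56 without Des-/- swim replicate 2, -2.08 without Des-/- swim replicate 3 and -2.04 without both replicates 3. The replicate block gave 1309 genes after swimming and 4073 without, with the same 1 member called after swimming. Apoe was called in 16 of 21 alternatives (adjusted p 0.000683 to 0.0896), Trem2 in 2 (0.018 to 0.439) and Lgals3, Cd44 and Cd300lf in 1 each. The causes were not tested. Cd300lf, Itgax and Fabp7 rest on few reads, where only large differences were detectable.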
